A study of Mus musculus with 6 samples.

Results

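Expression of 32 genes of the endoplasmic reticulum (ER) stress response was followed in aortic roots of mice labelled Sost+/+ or Sost-/-. The members were fixed by name as the sensors, chaperones, degradation genes and ATF4 targets of the response, with earlier results of these data known. All 32 were found among the 23420 gene symbols of the count table, and all 32 passed the filter on low counts that left 15096 tested genes. RNA of 6 aortic roots was sequenced, 3 labelled Sost+/+ (called WT 1 to 3) and 3 labelled Sost-/- (called KO 1 to 3). Both groups were C57BL6/J mice of 12 months that ate standard chow to 4 months of age and a high-cholesterol diet for the following 8 months. The labels give the mutation as a loss of both Sost copies and name no allele, Cre line, sex or individual animal. Where nothing ties a library to its own animal, p-values measure the spread between these libraries.

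Total counts ran from 37023586 to 48172863 per library. Sost itself, which encodes the secreted Wnt antagonist sclerostin, was not lower under the Sost-/- label, with 354, 621 and 274 counts in the WT libraries, against 2284, 1063 and 513 counts in KO 1 to 3 (log2 fold change 1.56, SE 0.48, edgeR adjusted p = 0.124). The targeted gene thus goes against the labels, and each direction given here compares KO with WT libraries as they were labelled. Sost was counted in every library of both groups, so with the labels as given or exchanged the Sost-/- group holds counts of the gene. Whether labels were exchanged, which would turn every direction, was not tested, nor was what transcript the allele keeps. Cell type markers also differed. The summed level of 13 smooth muscle markers was 1613 to 3108 CPM (counts scaled to the TMM library size) in WT and 4646 to 6827 CPM in KO libraries, and 10 of the 13 rose by edgeR and by DESeq2. That of 16 heart muscle cell markers was 92140 to 98670 CPM in WT and 63880 to 78010 CPM in KO libraries, and 2 of the 16 fell by edgeR. Of those 16, 14 had a fold change below 0, 10 of them at an unadjusted p under 0.05, and DESeq2 called 10 lower. The median log2 fold change of the 16 was -0.45, and their summed level changed by -26.0% in the mean. No marker of either list was at 0. The part of these differences in the results below was not tested. In bulk tissue, fewer cells of a type and less RNA per cell cannot be told apart.

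The ER is where secreted and membrane proteins enter, fold and receive disulfide bonds and sugar chains. When unfolded proteins build up there, 3 membrane sensors respond: IRE1 (gene Ern1), which splices Xbp1 mRNA, PERK (gene Eif2ak3), which phosphorylates the initiation factor eIF2alpha, and ATF6, which is cut in the Golgi to free a transcription factor. ATF6 and XBP1 switch on chaperone and degradation genes. Phosphorylated eIF2alpha favours translation of ATF4, which switches on genes of amino acid supply and, with prolonged stress, the factor CHOP (gene Ddit3). Smooth muscle, valve cells and fibroblasts secrete collagen and elastin and use this machinery at rest.

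Levels can be compared between genes only per length, here as CPM per kilobase of merged exons. On that scale chaperones led in the WT libraries. Calr, the calcium-binding chaperone calreticulin, stood at 219 ± 5.33 CPM per kb (SD, n = 3), Hspa5, the ER Hsp70 protein BiP, at 186 ± 22.4 and Hsp90b1, the ER Hsp90 protein GRP94, at 170 ± 19.1. The SD ranges of Hspa5 and Hsp90b1 overlapped, and the order of these genes within the same libraries was not tested. P4hb and Pdia3, both protein disulfide isomerases, followed at 134 ± 3.12 and 105 ± 7.31 CPM per kb, and the membrane lectin chaperone Canx at 87.8 ± 7.49. Sensors were far lower than these chaperones: Atf6 stood at 15.6 ± 1.39, Eif2ak3 at 3.05 ± 0.28 and Ern1, the lowest member, at 1.30 ± 0.298 CPM per kb. The lowest chaperone gene, Hyou1, was close to Atf6 at 15.1 ± 2.15 CPM per kb. Among ATF4 targets only Ddit3 (25.2 ± 3.37) and Ppp1r15a (15.3 ± 1.60) lay above 10 CPM per kb. The targets that mark a strong ATF4 response in many cells, Chac1 (3.57 ± 1.13), Trib3 (3.07 ± 0.726), Asns (2.34 ± 0.267) and Sesn2 (1.84 ± 0.285), were near the bottom.

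**Figure D1:**
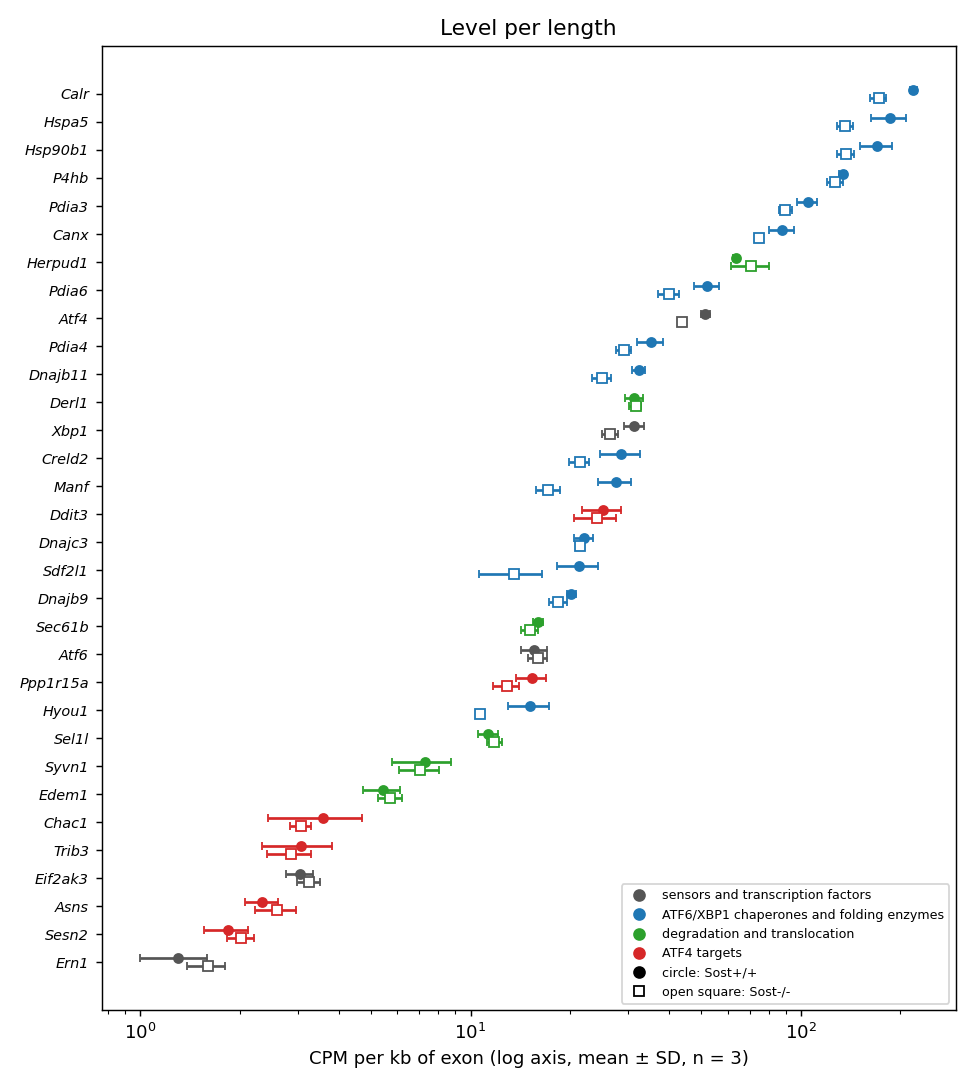
Level of the 32 genes per length in both groups, as mean CPM per kb of exon with SD over 3 libraries on a log axis, with circles for Sost+/+ and open squares for Sost-/-. Calr, Hspa5 and Hsp90b1 lie highest and Ern1 lowest, and the squares of Manf and Sdf2l1 lie well to the left of their circles.

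The ATF6/XBP1 chaperones and folding enzymes all had a fold change below 0 in the libraries labelled Sost-/-, and edgeR called 1 of them. The 15 fold changes had a median of -0.34 on the log2 scale and a range from -0.68 to -0.03. Over all tested genes the median was 0.01, and 48.7% were below 0. By edgeR's quasi-likelihood test with adjustment over all genes, 1 of the 15 fell and 0 rose, where 2.55% of all tested genes were called in either direction and 0.371% were called lower and 2.18% higher. At an unadjusted p under 0.05, 12 of the 15 were lower and 0 higher, against 8.62% and 11.6% of all tested genes. In 13 of the 15 every KO library lay below every WT library, against 11.1% of tested genes, and in 0 every KO library lay above, against 14.3%. These shares are a description, because the members were chosen with earlier results of these data known. The summed level of the 15 was 4251, 3720 and 4163 CPM in WT 1 to 3 and 3190, 3304 and 3288 CPM in KO 1 to 3, a change of the mean by -19.4%.

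The gene that passed was Manf, which encodes a small secreted and ER-resident protein induced by ER stress (chr9:106838312-106891979, minus strand, mm10). Manf stood at 110, 93.1 and 87.7 CPM in WT 1 to 3 and at 55.2, 65.0 and 61.1 CPM in KO 1 to 3. The lowest WT library was thus above the highest KO library. Manf fell by 0.68 on the log2 scale (SE 0.11, edgeR adjusted p = 0.0204). This call ended without WT replicate 1 (log2 fold change -0.60, adjusted p = 0.085) and without KO replicate 3 (-0.69, adjusted p = 0.0923). Without WT replicate 1 edgeR called 0 genes of all (2262 at an unadjusted p under 0.05), without KO replicate 3 it called 10, without KO replicate 2 218 and without WT replicate 3 118. Exons of Manf share 312 bases with genes on the opposite strand, among them Dcaf1, and whether the counting used strand is not given in the sources used here.

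Next by p were 2 co-workers of BiP. Hyou1, a large ER chaperone of the Hsp110 type that exchanges nucleotide on BiP (chr9:44379490-44392369, plus strand), stood at 99.3, 100 and 127 CPM in WT 1 to 3 and at 78.8, 77.6 and 76.5 CPM in KO 1 to 3. The KO values lay close together and below all WT values, but the test did not call the gene (log2 fold change -0.49, SE 0.11, edgeR adjusted p = 0.0509). It passed by DESeq2 (adjusted p = 0.00158) and under 4 other settings (robust dispersion, DESeq2 size factors in edgeR, no low-count filter, and limma on the deposited values, adjusted p = 0.03 to 0.0496). Dnajb11, a J-domain partner that brings unfolded protein to BiP (chr16:22857845-22879634, plus strand), stood at 110, 101 and 102 CPM in WT and at 75.6, 86.0 and 80.8 CPM in KO libraries, again without overlap (-0.37, SE 0.09, edgeR adjusted p = 0.0609).

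BiP itself followed the same order of groups. Hspa5 (chr2:34771970-34777547, plus strand) stood at 841, 679 and 845 CPM in WT and at 609, 545 and 573 CPM in KO libraries, a change by -27.0% (log2 fold change -0.45, SE 0.12, edgeR adjusted p = 0.0857). WT 2 was the lowest WT library and still lay above KO 1, the highest KO library. Sdf2l1, which sits with BiP and Dnajb11 in an ER complex (chr16:17130138-17132383, minus strand), stood at 23.5, 20.3 and 27.0 CPM in WT and at 12.9, 18.7 and 13.3 CPM in KO libraries. Its fold change was nearly as large as that of Manf, with a wider error (-0.66, SE 0.16, edgeR adjusted p = 0.0731). Creld2, a secreted ER stress protein with disulfide isomerase activity (-0.42), Pdia6 (-0.39), Calr (-0.34), Hsp90b1 (-0.31) and Pdia4 (-0.27) came next on the log2 scale, none of them called by edgeR and none with overlapping groups. Calr had the tightest WT values of these, 645, 614 and 632 CPM, against 469, 496 and 524 CPM in KO libraries.

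The rest of the 15 had the smallest fold changes. Canx was at -0.23, Pdia3 at -0.22 and Dnajb9, the BiP cofactor that keeps IRE1 off, at -0.13 on the log2 scale (edgeR adjusted p = 0.235, 0.239 and 0.393). For Canx, Pdia3 and Dnajb9 every KO library still lay below every WT library. P4hb, the isomerase that is also a subunit of collagen prolyl hydroxylase, stood at 373, 385 and 391 CPM in WT and at 341, 371 and 381 CPM in KO libraries, so the groups overlapped (-0.07, SE 0.09). Dnajc3, the J-domain protein that inhibits PERK, stood at 115, 105 and 119 CPM in WT and at 111, 110 and 110 CPM in KO libraries (-0.03, SE 0.08). DESeq2, which called 2.87% of all tested genes lower and 5.11% higher, called 9 of the 15 chaperones lower and 0 higher: Hspa5, Hsp90b1, Hyou1, Dnajb11, Sdf2l1, Calr, Pdia6, Manf and Creld2. Limma-voom, which called 0.338% of all tested genes lower and 2.01% higher, called 1 of the 15, again Manf.

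**Figure D2:**
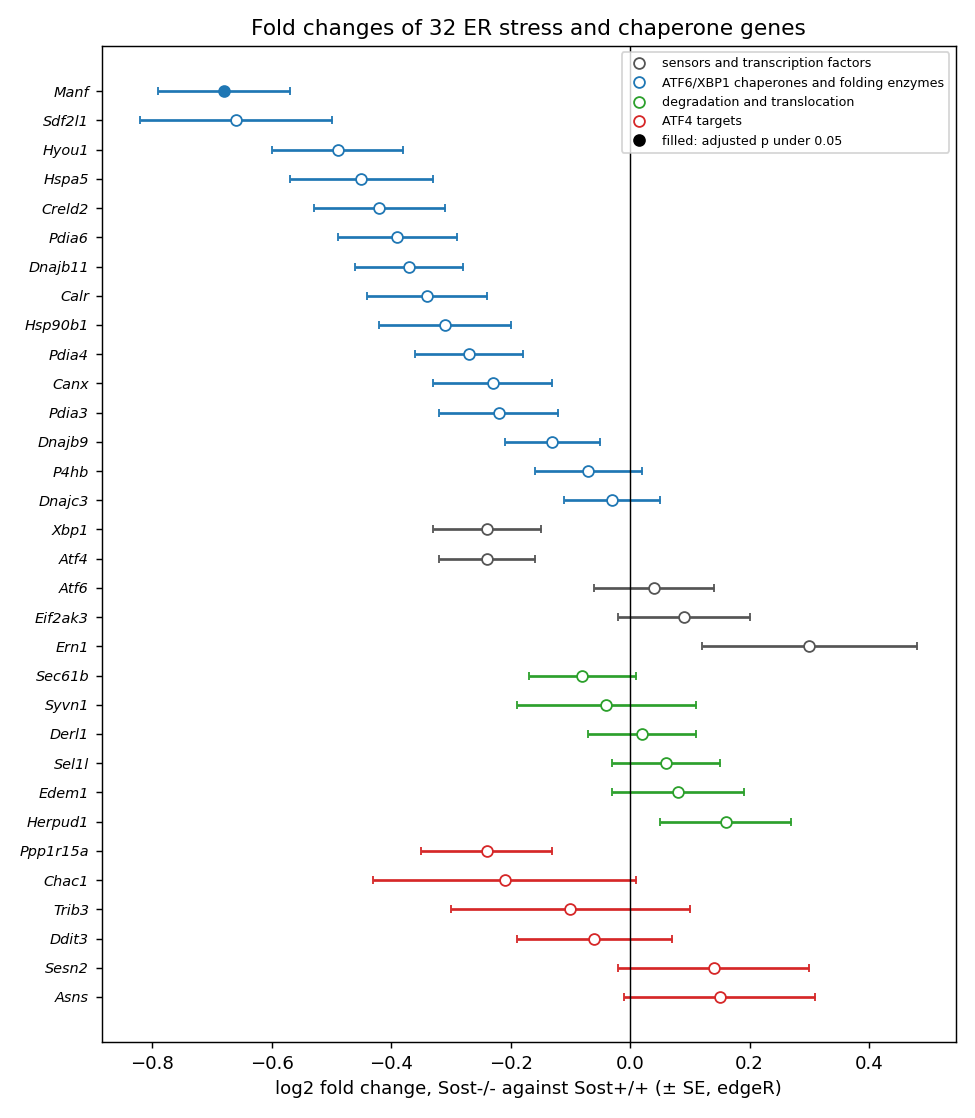
Log2 fold changes of the 32 genes with SE from edgeR, Sost-/- against Sost+/+, coloured by role, with a filled point for an adjusted p under 0.05. The 15 chaperones lie between -0.68 and -0.03, Manf is the filled point, and the ATF4 targets lie on both sides of 0.

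Sensors and their transcription factors did not move as 1 group. Of the 5, 0 were called, 2 were below 0 and 3 above. Atf4, the factor translated when eIF2alpha is phosphorylated, stood at 125, 121 and 118 CPM in WT 1 to 3 and at 104, 100 and 104 CPM in KO 1 to 3. The groups did not overlap, and the difference was -0.24 on the log2 scale (SE 0.08, edgeR adjusted p = 0.145, DESeq2 adjusted p = 0.0477). Xbp1, whose spliced mRNA encodes the active factor, stood at 99.0, 96.3 and 109 CPM in WT and at 86.0, 81.2 and 90.8 CPM in KO libraries (-0.24, SE 0.09, edgeR adjusted p = 0.18). Counts per gene do not separate spliced from unspliced Xbp1, ATF4 is controlled by translation and ATF6 by cleavage, so these levels are of mRNA and not of the active factors. Ern1 stood at 8.43, 10.1 and 13.2 CPM in WT and at 14.4, 11.1 and 13.6 CPM in KO libraries, with overlap (0.30, SE 0.18, edgeR adjusted p = 0.369). Eif2ak3 (0.09, SE 0.11) and Atf6 (0.04, SE 0.10) were close to 0.

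The 6 genes of ER-associated degradation and translocation, through which misfolded proteins leave and new chains enter the ER, lay around 0. Of these, 0 were called by edgeR, DESeq2 or limma-voom, 0 had an unadjusted p under 0.05, and the groups overlapped for each. The median log2 fold change was 0.04, in a range from -0.08 to 0.16. Herpud1, a membrane protein that organises the degradation complex, stood at 145, 148 and 151 CPM in WT 1 to 3 and at 160, 147 and 190 CPM in KO 1 to 3 (0.16, SE 0.11, edgeR adjusted p = 0.435). KO 3 was the high library there. Sec61b, a subunit of the translocation channel, stood at 21, 19.6 and 20.3 CPM in WT and at 18.8, 18.3 and 20.4 CPM in KO libraries (-0.08, SE 0.09, edgeR adjusted p = 0.648). Sel1l, the adaptor of the ubiquitin ligase HRD1, stood at 94.6, 91.2 and 104 CPM in WT and at 105, 94.9 and 103 CPM in KO libraries (0.06, SE 0.09, edgeR adjusted p = 0.723). In both the ranges of the groups overlapped. Syvn1, which encodes HRD1 itself, was at -0.04 and spread from 28.7 to 43.0 CPM among WT libraries. Edem1, a lectin that picks misfolded glycoproteins, was at 0.08 and the channel protein gene Derl1 at 0.02. Of the 50-base stretches of Sec61b transcripts 17.4% also occur in transcripts of other genes, as do 5.56% of Derl1 and 5.50% of Dnajb9, so reads of these 3 may be shared.

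None of the 6 ATF4 targets passed either. By edgeR, 0 rose and 0 fell, 1 had an unadjusted p under 0.05, and DESeq2 and limma-voom called 0 as well. Their median log2 fold change was -0.08, with 4 below 0 and 2 above. Ppp1r15a, which encodes the phosphatase subunit GADD34 that reverses eIF2alpha phosphorylation, stood at 41.6, 42.8 and 50.2 CPM in WT 1 to 3 and at 41.3, 34.5 and 37.9 CPM in KO 1 to 3. WT 1 and KO 1 were almost level (-0.24, SE 0.11, edgeR adjusted p = 0.238). Asns, asparagine synthetase, stood at 5.63, 6.49 and 7.08 CPM in WT and at 6.05, 8.07 and 7.18 CPM in KO libraries (0.15, SE 0.16, edgeR adjusted p = 0.628). Chac1, a glutathione-degrading enzyme, stood at 4.06, 5.72 and 7.74 CPM in WT and at 5.37, 5.08 and 4.63 CPM in KO libraries, with every KO value inside the WT range (-0.21, SE 0.22, edgeR adjusted p = 0.632). Ddit3, the gene of CHOP, stood at 49.2, 42.4 and 37.8 CPM in WT and at 35.4, 47.6 and 40.8 CPM in KO libraries, with overlapping ranges (-0.06, SE 0.13). The pseudokinase gene Trib3 was at -0.10 (SE 0.20) and the stress sensor gene Sesn2 at 0.14 (SE 0.16). Asns, Chac1, Sesn2 and Trib3 rested on 181 to 327 counts per library, and their SEs were wider than those of most chaperones.

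**Figure D3:**
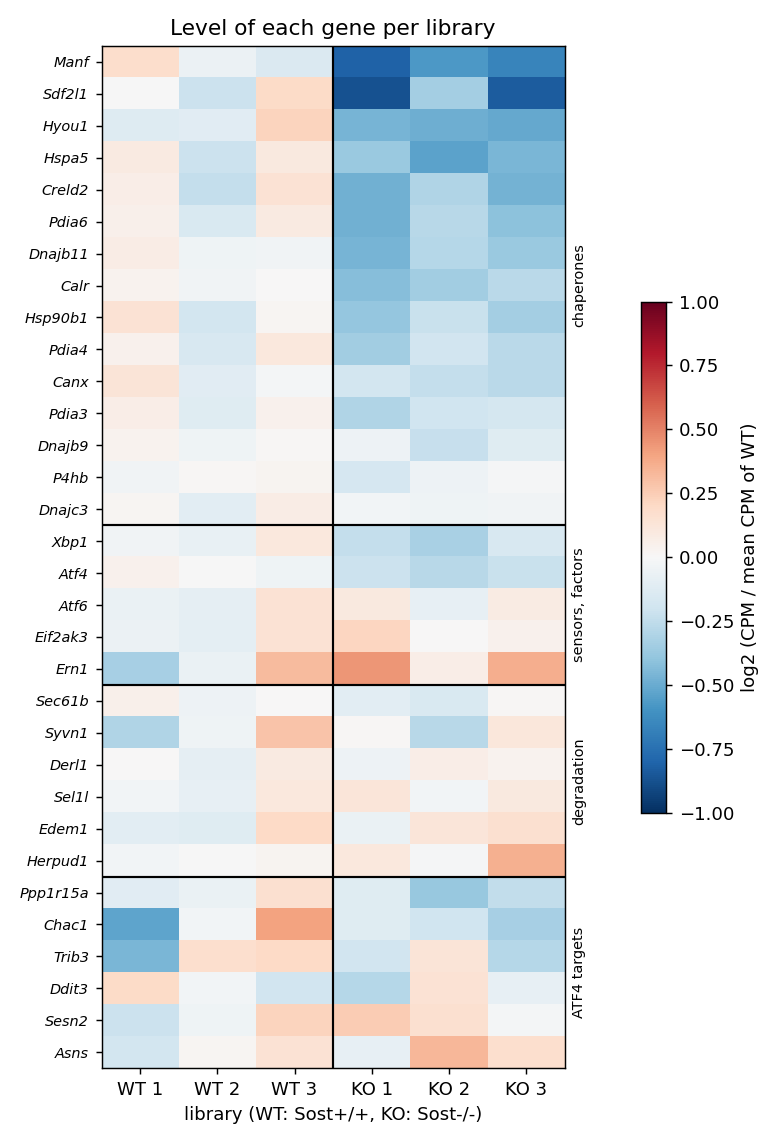
Level of each gene in each library as log2 of its CPM over the mean CPM of the 3 Sost+/+ libraries, with rows grouped by role and ordered by fold change. Manf, Sdf2l1 and Hyou1 at the top are blue in all 3 KO libraries, whereas degradation genes and ATF4 targets show both colours within each group.

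Promoter sequences were read for what the members share beside their function. The reference table of RefSeq promoters (GRCm38.p6, 250 bases before to 50 after each start) held 28 of the 32 members, without Manf, Hyou1, Atf6 and Derl1. The ER stress element (ERSE) is the site that ATF6 binds together with NF-Y and is written as CCAAT and CCACG with 9 bases between them. It occurred on either strand in 8 of the 28 members and in 0.137% of the 27025 genes with a window. Of these 8, 7 were chaperones and the other was Syvn1. The elements are shown in the direction from CCAAT to CCACG, with both ends in capitals, since they are what these promoters have in common.
Hspa5: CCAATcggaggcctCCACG
Hsp90b1 (far element): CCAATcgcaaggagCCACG
Hsp90b1 (near element): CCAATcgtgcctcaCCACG
Calr: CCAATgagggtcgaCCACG
Canx: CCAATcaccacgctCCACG
Creld2: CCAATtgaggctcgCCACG
Pdia6: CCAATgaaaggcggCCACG
Dnajc3: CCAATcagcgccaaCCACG
Syvn1: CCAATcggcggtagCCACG

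The ends are the same by construction, and the 9 bases between them differ from gene to gene. The element lies 65 bases before the start in Hspa5 (chr2:34772025-34772043) and 98 before it in Pdia6 (chr12:17266491-17266509), counting to its first base, and Hsp90b1 holds it at both chr10:86705638-86705656 and chr10:86705533-86705551. Members with the element had log2 fold changes from -0.45 (Hspa5) to -0.03 (Dnajc3), with a median of -0.33 over the 8. The 5 chaperones with a window and without ERSE or its variant, Dnajb9, Sdf2l1, P4hb, Pdia3 and Pdia4, had a median of -0.22 and a range from -0.66 to -0.07. Manf (-0.68) and Hyou1 (-0.49) have no window and are in neither set, and the 8 include Syvn1 (-0.04), a degradation gene. Whether the sets differ was not tested. A match is a description of the letters and not a site shown to be bound.

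The variant ERSE-II, ATTGG and CCACG with 1 base between them, occurred in 2 members and in 0.0444% of all genes with a window. It is shown because its 2 holders differed in fold change, Dnajb11 at -0.37 and Herpud1 at 0.16 on the log2 scale. In Dnajb11 it lies after the start.
Dnajb11: ATTGGcCCACG
Herpud1: ATTGGgCCACG

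The amino acid response element (AARE), read by ATF4 with a C/EBP partner and searched as TGATGNAA on both strands, occurred in 4 members and in 4.51% of all genes with a window. Of the 4, 3 are ATF4 targets and the other is Herpud1. The element is in capitals with 8 bases on each side, in the direction of the searched letters.
Asns: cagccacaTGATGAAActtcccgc
Chac1: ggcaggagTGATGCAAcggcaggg
Herpud1: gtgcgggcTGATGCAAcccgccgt
Trib3: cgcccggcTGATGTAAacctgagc

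The 4 genes had log2 fold changes of 0.15, -0.21, 0.16 and -0.10 in that order, none called. The unfolded protein response element TGACGTGG, whose complement shares the letters CCACG with ERSE, occurred in 0 members and in 0.714% of all genes with a window. Herpud1 was thus the one member to hold both an element of the ATF6/XBP1 arm and one of the ATF4 arm. The 250 bases before its start are shown beside those of Hspa5 and Hsp90b1, the abundant chaperones, and of Asns, the amino acid gene, with the same elements in capitals on the gene's own strand. They lie at chr2:34771840-34772089 (plus strand), chr10:86705445-86705694 (minus strand), chr8:94386179-94386428 (plus strand) and chr6:7693210-7693459 (minus strand).
Hspa5: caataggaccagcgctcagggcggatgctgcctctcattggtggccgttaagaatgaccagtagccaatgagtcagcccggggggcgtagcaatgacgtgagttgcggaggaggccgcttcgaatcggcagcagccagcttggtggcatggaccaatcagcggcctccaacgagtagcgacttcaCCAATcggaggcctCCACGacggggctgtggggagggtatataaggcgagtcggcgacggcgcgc
Hsp90b1: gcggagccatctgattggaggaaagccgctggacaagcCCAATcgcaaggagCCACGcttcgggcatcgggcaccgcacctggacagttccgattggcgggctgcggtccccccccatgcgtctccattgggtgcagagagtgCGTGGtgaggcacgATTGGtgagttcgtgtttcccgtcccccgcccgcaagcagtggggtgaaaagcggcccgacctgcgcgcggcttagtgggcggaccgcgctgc
Herpud1: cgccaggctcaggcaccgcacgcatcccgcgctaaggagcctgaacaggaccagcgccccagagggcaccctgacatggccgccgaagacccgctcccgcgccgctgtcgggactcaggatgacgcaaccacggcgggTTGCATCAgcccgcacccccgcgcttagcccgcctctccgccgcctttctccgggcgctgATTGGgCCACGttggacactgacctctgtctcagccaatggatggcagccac
Asns: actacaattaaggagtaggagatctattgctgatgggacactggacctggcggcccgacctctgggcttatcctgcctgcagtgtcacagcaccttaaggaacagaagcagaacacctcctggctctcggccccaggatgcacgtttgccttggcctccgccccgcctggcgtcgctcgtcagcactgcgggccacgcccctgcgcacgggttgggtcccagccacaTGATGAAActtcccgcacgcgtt

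**Figure D4:**
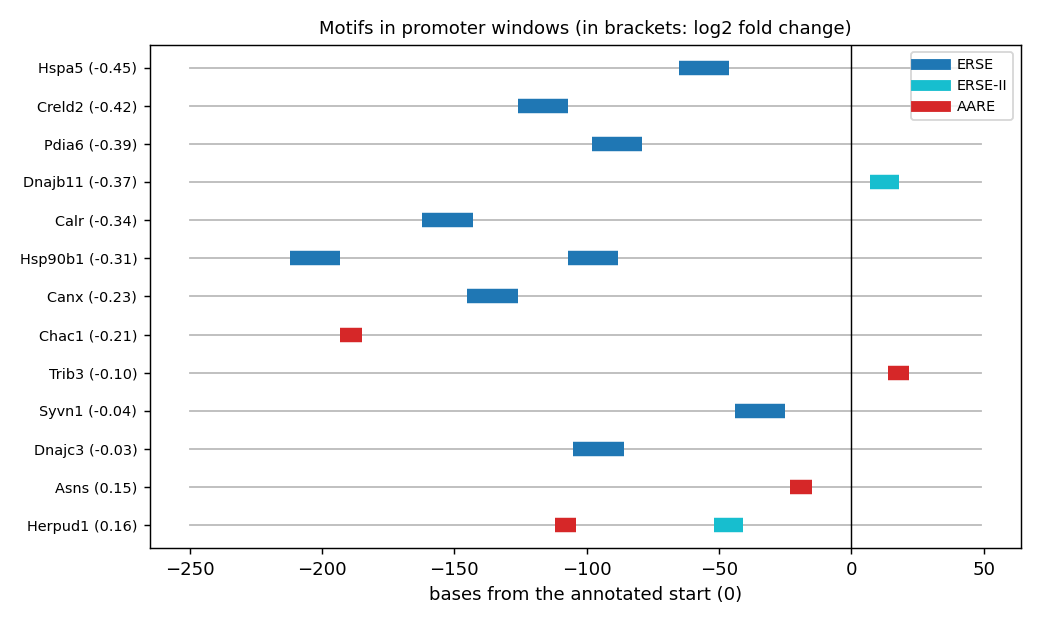
Position of the searched elements in the promoter windows of the 13 members that hold one, in bases from the annotated start, with the log2 fold change in brackets and genes ordered by it. The ERSE bars of Hspa5, Creld2, Pdia6, Calr, Hsp90b1 and Canx are in the upper part, and Herpud1 at the bottom holds both ERSE-II and AARE.

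Other genes of the ER and of the ATF4 arm gave a mixed picture. Of 36 tested other folding enzymes and chaperones, 0 were called by edgeR (5 at an unadjusted p under 0.05, 1 by DESeq2, 0 by limma-voom), 18 were below 0, and the median log2 fold change was -0.00. The smallest p among them was that of Serpinh1, the collagen chaperone HSP47, at 500, 504 and 566 CPM in WT and 406, 406 and 423 CPM in KO libraries (-0.35, SE 0.10, edgeR adjusted p = 0.102). Of 24 other degradation genes, 17 were below 0 and 7 above, with a median of -0.07, and by edgeR 2 fell and 0 rose. Both encode ubiquitin-conjugating enzymes that serve ER degradation. Ube2g2 stood at 134, 124 and 119 CPM in WT 1 to 3 and at 94.4, 98.5 and 88.2 CPM in KO 1 to 3 (-0.43, SE 0.09, edgeR adjusted p = 0.0439), and Ube2j2 went from 9.09 ± 1.37 to 4.79 ± 1.11 CPM (mean ± SD over 3 libraries, log2 scale -0.93, SE 0.20, edgeR adjusted p = 0.0485).

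Of 24 other translocation and signal peptide genes, 0 were called by edgeR (5 at an unadjusted p under 0.05, all lower, 2 by DESeq2, 0 by limma-voom). Of the 24, 19 were below 0 and 5 above, with a median of -0.07. The smallest p was that of Ssr2, a subunit of the translocon-associated complex (-0.26, SE 0.08, edgeR adjusted p = 0.113). Of 18 other response factors, 0 were called by edgeR (3 at an unadjusted p under 0.05, 1 by DESeq2, 0 by limma-voom), with a median of -0.01 and the smallest p for Traf2, an adaptor that IRE1 recruits (-0.30, SE 0.08, edgeR adjusted p = 0.0871). The 31 tested other ATF4 targets went both ways, 3 higher and 1 lower, with a median of -0.09. Atf3, a stress-induced factor, fell from 28.5 ± 4.23 CPM in WT to 15.1 ± 1.09 CPM in KO libraries (SD, n = 3, a log2 difference of -0.91, SE 0.12, edgeR adjusted p = 0.0151). Nupr1, a small stress-induced chromatin protein, rose from 64.2, 63.7 and 52.1 CPM in WT to 93.2, 118 and 121 CPM in KO libraries (0.88, SE 0.13, edgeR adjusted p = 0.0151).

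Slc6a9, a glycine transporter, stood at 5.76, 8.29 and 6.59 CPM in WT and at 13.7, 14.2 and 17.4 CPM in KO libraries (1.14, SE 0.16, edgeR adjusted p = 0.0151). Pck2, the mitochondrial phosphoenolpyruvate carboxykinase, was the third that rose (0.48, SE 0.10, edgeR adjusted p = 0.045). All 20 genes of cytosolic aminoacyl-tRNA synthetases, which charge tRNAs for translation, and of the tRNA exporter Xpot were below 0, with a median of -0.18 and a range from -0.32 to -0.03. By edgeR 0 of them were called (7 at an unadjusted p under 0.05, 2 by DESeq2, 0 by limma-voom), and Farsa, a subunit of phenylalanyl-tRNA synthetase, had the smallest p (-0.30, SE 0.08, edgeR adjusted p = 0.0812).

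Heat shock genes whose proteins act outside the ER were compared with the ER chaperones. Hspd1 and Hspe1 encode the mitochondrial chaperonin, Hsf1 encodes a regulator of the others, and the others act mainly in the cytosol. All 20 fold changes were below 0, with a median log2 fold change of -0.29 and a range from -0.56 to -0.09, and 1 fell by edgeR. This was Hspa8, the constitutive Hsp70 protein, at 2030, 1730 and 1980 CPM in WT 1 to 3 and 1330, 1320 and 1310 CPM in KO 1 to 3 (-0.54, SE 0.11, edgeR adjusted p = 0.0444). At an unadjusted p under 0.05, 11 of the 20 were lower, against 12 of the 15 ER chaperones and 8.62% of all tested genes. In 13 of the 20 every KO library lay below every WT library, against 13 of the 15 and 11.1% of all tested genes. DESeq2 called 7 of the 20 lower, against 9 of the 15 and 2.87% of all tested genes. The summed level of the 20 changed by -21.2% in the mean, against -19.4% for the 15. Whether the lists differ was not tested. Immediate early genes, which respond within minutes to handling and stretch, did not share this order: of 24, 0 were called by edgeR (2 at an unadjusted p under 0.05, 1 by DESeq2, 0 by limma-voom), 11 were below 0 and 13 above, and the median was 0.05. The smallest p there was that of Ier5 (-0.54, SE 0.16, edgeR adjusted p = 0.105).

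**Figure D5:**
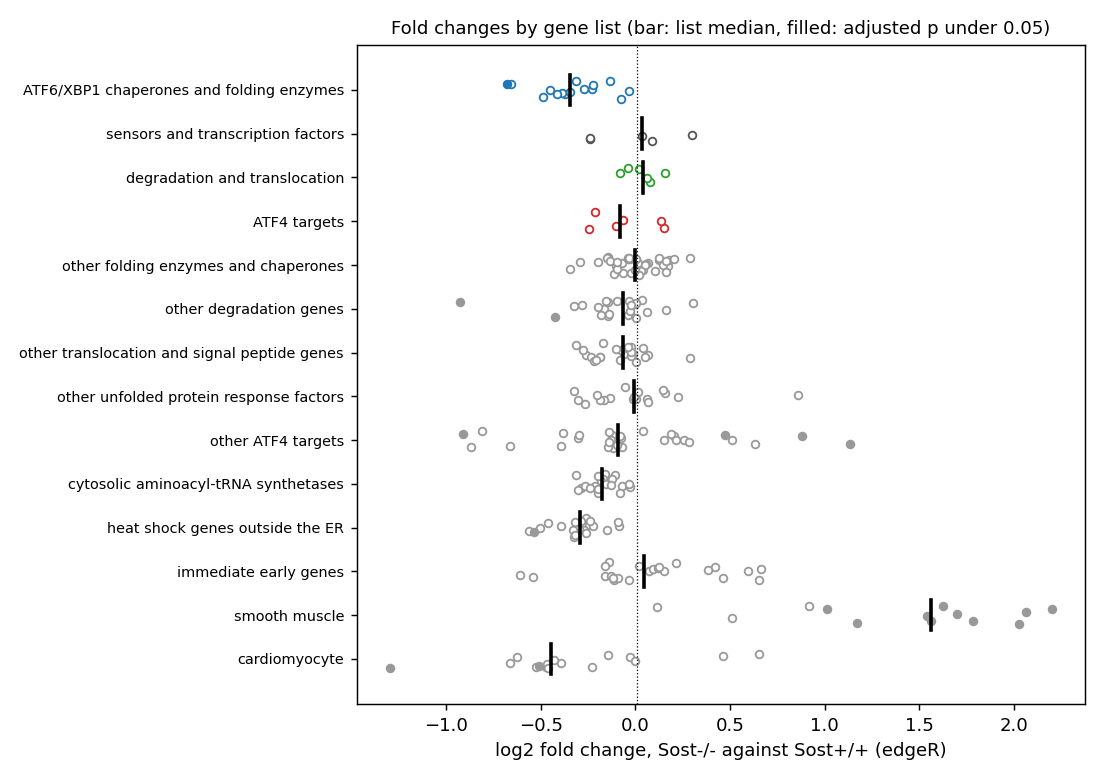
Log2 fold changes of single genes by list, with list medians as bars, filled points for an adjusted p under 0.05 and a dotted line at the median of all tested genes. ER chaperones (median -0.34), heat shock genes outside the ER (-0.29) and aminoacyl-tRNA synthetases (-0.18) lie wholly below 0, smooth muscle markers (1.56) above it, and the other ER lists straddle it. Heart muscle cell markers have a median of -0.45, with 14 of 16 below 0.

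Markers of the remaining cell types that a dissected root can hold were set beside these values. Fibroblast markers, of a cell type rich in ER, summed to 5085 to 5479 CPM in WT and 5669 to 6604 CPM in KO libraries, and 0 of 12 were called by edgeR (4 at an unadjusted p under 0.05, 3 by DESeq2, 0 by limma-voom). Plasma and B cell markers, of antibody-secreting cells with a large ER and their precursors, summed to 42.7 to 47.2 CPM in WT and 44.7 to 48.4 CPM in KO libraries. Macrophage markers summed to 1287 to 1516 CPM in WT and 1179 to 1876 CPM in KO libraries, and endothelial markers to 1061 to 1218 and 904.8 to 1259 CPM. Adipocyte markers summed to 515.2 to 932.6 CPM in WT and 708 to 1695 CPM in KO libraries. By edgeR 0 of 10 plasma and B cell, 12 macrophage, 10 endothelial and 10 adipocyte markers tested were called (1, 3, 1 and 7 at an unadjusted p under 0.05, and 0, 2, 0 and 1 by DESeq2). Chondrocyte markers summed to 197.9 to 233.7 CPM in WT and 204 to 260.6 CPM in KO libraries, and 1 of 9 tested, Acan, rose. Exact two-sided permutation p-values over the 6 libraries, which cannot pass 0.05 with 3 libraries a group, were 0.1, the smallest possible, for smooth muscle, heart muscle and fibroblast markers, and from 0.2 to 0.9 for the other 5 lists. Adjusted over the 8 lists the smallest was 0.267. No marker in the table was at 0 in all libraries, and the part of any cell type in the chaperone values was not tested.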

How the data were processed

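The authors deposited raw counts of reads for each gene symbol. DRAGEN, HTSeq and DESeq2 appear in the submitters' processing notes with the build mm10. Their versions, the annotation and the strand setting were not given in the sources used here. The deposited table of normalized signal holds these counts divided by 1 factor per library, equal to DESeq2's size factors computed here. Groups come from the genotype label, and replicates were numbered in accession order.

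Genes were kept with filterByExpr (minimum count 10, minimum total count 15), TMM-scaled and fitted in edgeR 4.0.16 under R 4.3.3 (glmQLFit and glmQLFTest) over all 15096 genes, with Benjamini-Hochberg adjustment at 0.05. The SE is the absolute log2 fold change over the square root of F. DESeq2 1.42.0 and limma 3.58.1 gave alternatives, and simulated data were used to test the edgeR fit. Of 332 list genes 329 were in the table, 4 of them by RefSeq synonym, and 321 were tested. Exon lengths and coordinates come from GENCODE M21 (GRCm38). No 2 libraries of a group were alike within sampling noise (chi-square per degree of freedom 34.1 to 64.5).

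The members and lists were chosen with earlier results of these data known. Values per library are given for members that passed and for the 3 of smallest p per role. Those of Hspa5, Sdf2l1, Calr, P4hb, Dnajc3 and Ddit3, and the genes named for promoter elements, were added after values were seen. Of the pathway and comparison lists, members that passed are named or, with none, the 1 of smallest p. Cell type markers are given as counts and sums.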

Additional observations from a re-analysis of the deposited data

How the results depend on the processing

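In the 13 alternatives (scaling, filter, test, dispersion, deposited values and each library left out) all 15 chaperones stayed below 0, with medians from -0.40 to -0.31. None of the 13 used library totals without a scaling factor. Called members numbered 2 with DESeq2 size factors in edgeR and with robust dispersion, 3 without the low-count filter and with limma on log2 of the deposited values plus 1, 10 by the DESeq2 test, and from 0 to 2 with a library left out. The 0 came without WT replicate 1 and without KO replicate 3 (13 and 10 members at an unadjusted p under 0.05). All called members were lower. Manf passed in 11 of the 13 and Hyou1 in 5. Over all genes the DESeq2 test called 1205 genes, 771 higher and 434 lower, against 385 by edgeR (329 and 56), and edgeR with a library left out called from 0 to 349. Of 15096 genes, DESeq2 size factors in edgeR called 368 (59 lower), robust dispersion 376 (63 lower) and limma on the deposited values 367 (61 lower). Without the low-count filter 567 of 19772 genes were called, 92 of them lower. Directions turned, with a library left out, for Atf6 (-0.01 to 0.11), Syvn1 (-0.18 to 0.12), Derl1 (-0.03 to 0.05), Ddit3 (-0.18 to 0.03) and Chac1 (-0.43 to 0.03). The ATF4 target median ran from -0.18 to 0.02. The cause of these shifts was not tested. No paired analysis was possible because the labels give the groups no shared replicate numbers. The SEs of the members ran from 0.08 to 0.22 on the log2 scale, and the 1 member that edgeR called differed by -0.68.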

Other observations

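Of the 37 genes with ERSE in a promoter window, 12 that were tested are no members. These 12 had a median log2 fold change of 0.07, with 5 below 0 and 7 above, beside -0.33 for the 8 members with the element. By edgeR 1 of the 12 was called, Adcy3, an adenylyl cyclase gene, which rose from 13.6 to 20.2 CPM in the mean (log2 fold change 0.57, SE 0.11, edgeR adjusted p = 0.0325). Derl3, another gene of ER degradation, held the element too, at 0.353 CPM in WT and 0.313 CPM in KO libraries. These genes were named after their values were seen.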
